A study of Mus musculus with 6 samples.

Results

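The genes described here are 34 haematopoietic cytokine and growth factor receptor genes, taken by symbol from the 24063 gene symbols of a table of RNA sequencing counts. All 34 were rows of the table, and 33 passed the filter on low counts and were tested. RNA came from LSK cells of mouse bone marrow, sorted as lineage negative, cKit+ and Sca1+, a fraction that holds stem cells and early progenitors. In 3 libraries the labels give the genotype Arid2fl/fl:MxCre+ (knockout), and in 3 they give MxCre+ (control) with wild-type Arid2. Arid2 encodes a subunit of the PBAF chromatin remodelling complex. Both groups are labelled C57/BL6, carry the Cre transgene and received pIpC at 6 to 8 weeks of age, with cells taken 6 weeks later. pIpC induces interferon, which switches on the Mx1 promoter that drives Cre in blood cells and in other tissues, so controls were exposed to Cre and to pIpC as well. The labels do not tie libraries to animals, and p-values here reflect differences among the sequenced libraries, which may be partly technical.

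Cytokine receptors of the type I and type II classes have no kinase of their own. They bind Janus kinases inside the cell, which phosphorylate STAT transcription factors once a ligand brings the chains together. Many share a signalling chain, such as the common beta chain, gp130 or the common gamma chain, and take their specificity from a private ligand-binding chain. Kit and the macrophage colony-stimulating factor receptor are tyrosine kinases, whereas IL-1 family and TNF receptors signal through adaptor proteins. In LSK cells, Kit and cytokines such as IL-3 and IL-6 are known for supporting survival and proliferation, and receptors such as Csf1r and Csf3r mark progenitors turning to myeloid fates.

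Libraries held 12408966 to 28185678 counted reads, of which 44974 to 92971 fell on the 34 receptor genes. The level of Arid2 itself differed between groups by less than the spread between libraries (156 ± 6.15 CPM in libraries labelled knockout and 155.8 ± 8.46 CPM in control libraries, SD, n = 3 each). Gene-level counts cannot tell a transcript that lacks the floxed exon from a full one, and directions below rest on the labels. CPM is the count of a gene scaled to library size with TMM factors. Xist and Y-linked genes showed that all 3 libraries labelled knockout and control replicate 2 came from females, and control replicates 1 and 3 from males. Sex and genotype therefore overlap, and each called gene of the 34 is also given with a sex term. That fit sets the libraries labelled knockout against female control replicate 2. For called genes outside the 34, its fold change is given for some only. Of the genes behind the sort gate, Kit was abundant in every library, and Ly6a, which encodes Sca1, had 12.4 to 15.3 CPM in libraries labelled knockout and 18.2 to 22.3 CPM in control libraries. Ly6a passed the test as lower (log2 fold change −0.56, edgeR adjusted p = 0.0378), and its log2 fold change was −0.52 with the sex term.

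In the libraries labelled knockout, 5 of the 33 receptor genes tested were higher, 2 were lower and 26 did not pass the test (edgeR quasi-likelihood test, Benjamini-Hochberg adjusted p under 0.05 over 13679 genes). The genes higher were Csf1r, Csf2rb2, Il15ra, Il10ra and Tnfrsf1b, and the genes lower were Il11ra1 and Il12rb1. The 7 are 21.2% of the receptor genes tested, beside 8.42% of all genes tested. By direction, 15.2% of the receptor genes were higher, beside 3.85% of all genes, and 6.06% were lower, beside 4.58%. The median log2 fold change of the receptor genes was 0.21, beside −0.0016 for all genes, and 21 of 33 values were positive (63.6%, beside 49.6%). With the sex term 0 receptor genes passed, beside 0.314% of all genes (0.0512% higher and 0.263% lower). At an unadjusted p under 0.05, 6 receptor genes passed with the sex term (18.2%, beside 11.9% of all genes), and these were the 7 called genes without Il12rb1. All 7 kept their direction in that fit, as was bound to happen with groups that do not overlap, and their values were smaller. The median of the receptor genes in that fit was 0.13, beside 0.0068 for all genes.

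**Figure D1:**
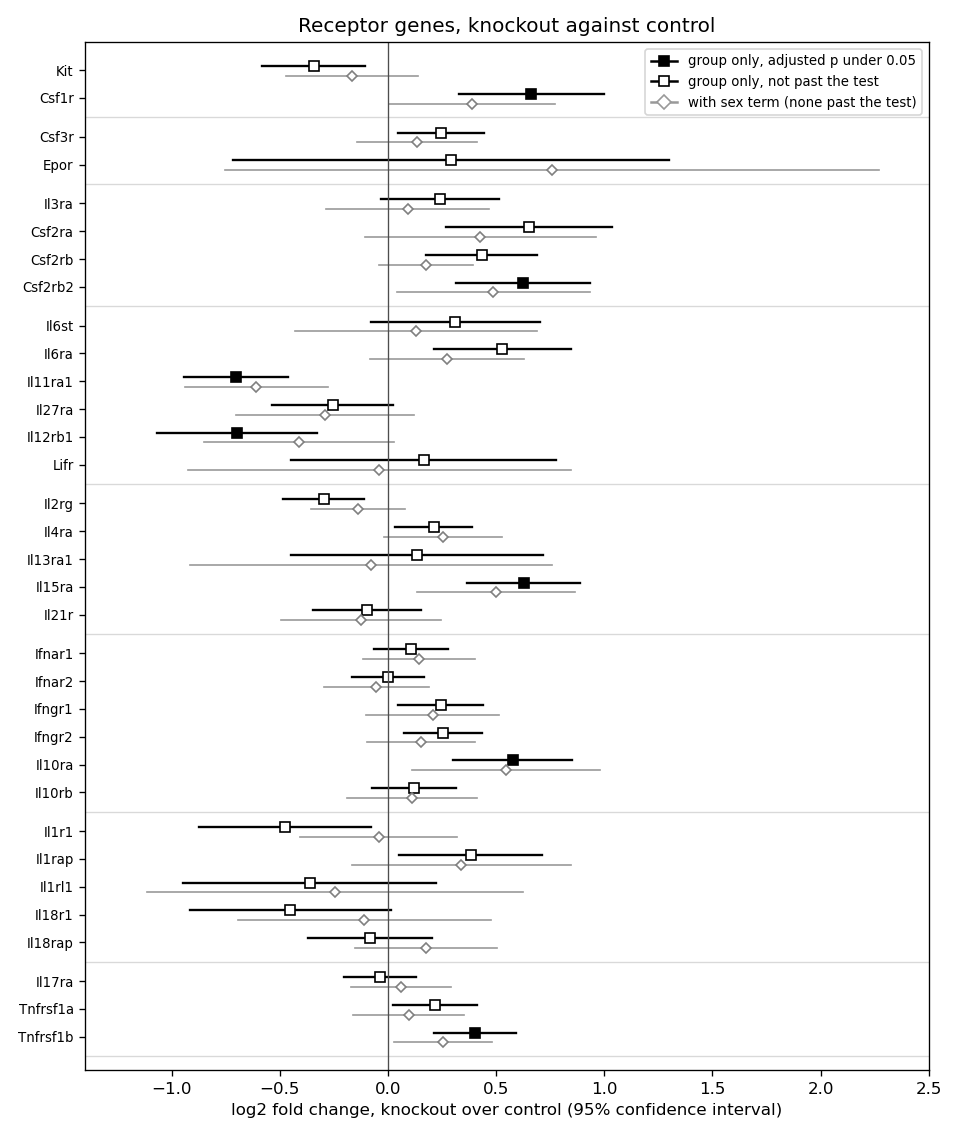
log2 fold change of the 33 tested receptor genes by receptor class, knockout over control, with 95% confidence intervals. Squares are the fit with the group alone (filled where adjusted p is under 0.05) and diamonds the fit with a sex term, in which none passed; Epor has the widest intervals.

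Fold changes of the 7 genes kept their sign without any 1 library, as was bound to happen with groups that do not overlap. They ran from 0.54 to 0.83 on the log2 scale for Csf1r, 0.47 to 0.71 for Csf2rb2, 0.53 to 0.71 for Il15ra, 0.48 to 0.70 for Il10ra, 0.35 to 0.49 for Tnfrsf1b, −0.75 to −0.61 for Il11ra1 and −0.82 to −0.55 for Il12rb1. The calls varied more: leaving out each library in turn left 0 to 7 receptor genes higher and 1 to 4 lower in the libraries labelled knockout, beside 5 and 2 with all libraries, while calls over all genes fell to between 2.1% and 7.15%. Without knockout replicate 2, 0 were higher and 1 lower, where 2.1% of all genes were called. Without the female control replicate 2, 7 were higher and 4 lower, where 7.15% of all genes were called. Il11ra1 was called in all 6 such fits, Il15ra in 4, Csf2rb2 in 3, Csf1r, Il10ra and Tnfrsf1b in 2 each, and Il12rb1 in 1. Neither Il11ra1 nor any other receptor gene was called with the sex term or in female libraries alone.

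**Figure D2:**
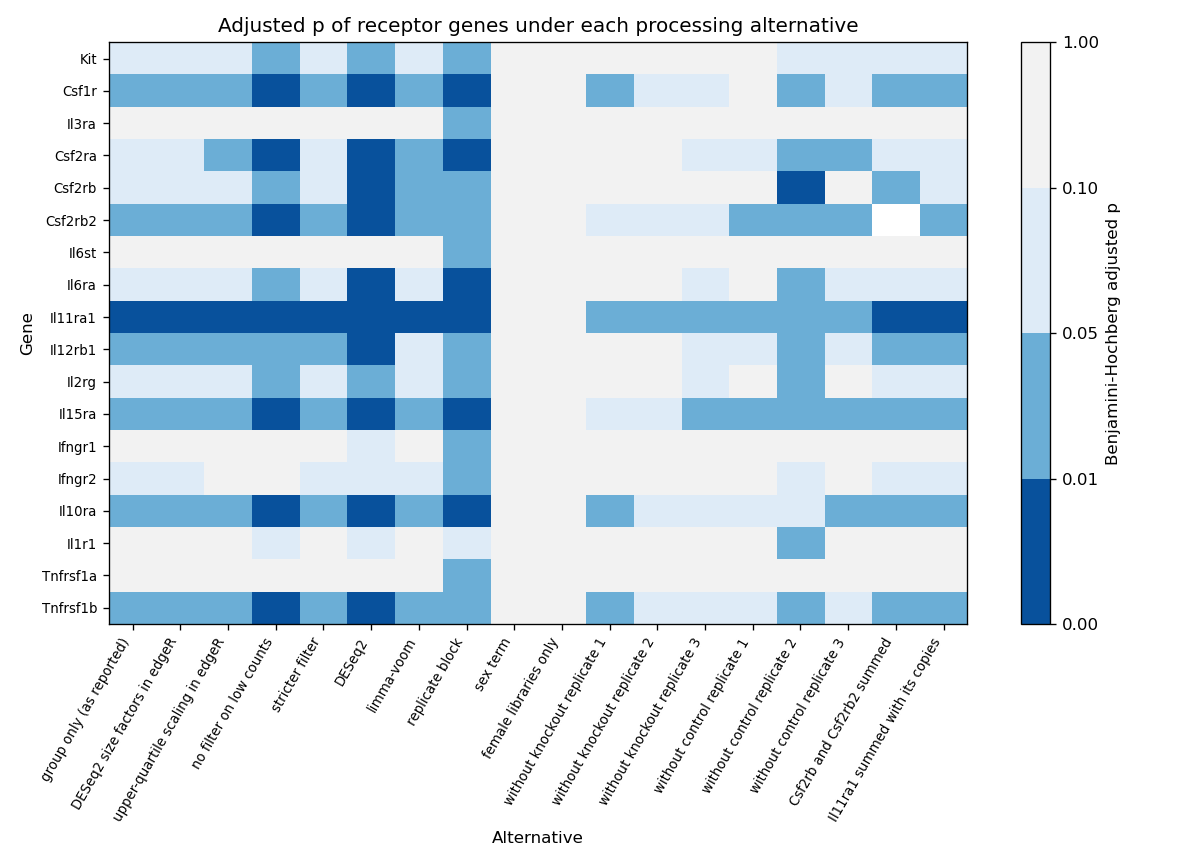
Adjusted p for each receptor gene called under any of the settings drawn (rows), as reported in the first column and then under each processing alternative (columns); dark blue is under 0.01 and mid blue under 0.05. Il11ra1 is called under all settings drawn except the sex term and female libraries only; the white cell is Csf2rb2, whose counts are then part of Csf2rb.

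The sequences just before the RefSeq starts of 4 called genes are shown, from RefSeq promoters of the same assembly (GRCm38.p6). They are windows in which motifs of STAT, PU.1 and erythroid zinc finger factors were searched. Of the 34 genes, 27 matched that table. Each is 250 bases long, with motif matches in capitals. For Il11ra1 the RefSeq start lies well inside the gene as GENCODE M21 places it, so this window precedes the RefSeq start and not the GENCODE one. The motifs searched on both strands were TTCNNNGAA (STAT factors; the same on both strands), GAGGAAGT (PU.1) and AGATAA (erythroid zinc finger factors). A match of one can overlap a match of another only in part.
Il11ra1, chr4:41760193-41760442, plus strand: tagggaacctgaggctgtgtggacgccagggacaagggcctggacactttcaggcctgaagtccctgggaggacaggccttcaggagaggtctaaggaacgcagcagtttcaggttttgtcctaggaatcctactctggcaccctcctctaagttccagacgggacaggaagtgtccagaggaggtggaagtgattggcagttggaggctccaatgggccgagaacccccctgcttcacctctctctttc
Csf2rb2, chr15:78305722-78305971, minus strand: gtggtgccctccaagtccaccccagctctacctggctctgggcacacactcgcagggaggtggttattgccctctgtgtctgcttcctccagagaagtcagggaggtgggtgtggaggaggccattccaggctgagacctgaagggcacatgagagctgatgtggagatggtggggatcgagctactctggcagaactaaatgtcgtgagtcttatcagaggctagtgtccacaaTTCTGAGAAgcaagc
Il15ra, chr2:11705043-11705292, plus strand: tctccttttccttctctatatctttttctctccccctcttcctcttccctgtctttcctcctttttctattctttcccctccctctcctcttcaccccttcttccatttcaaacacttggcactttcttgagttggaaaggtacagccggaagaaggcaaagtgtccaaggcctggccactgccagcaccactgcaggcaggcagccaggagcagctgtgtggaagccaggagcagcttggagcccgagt
Tnfrsf1b, chr4:145246871-145247120, minus strand: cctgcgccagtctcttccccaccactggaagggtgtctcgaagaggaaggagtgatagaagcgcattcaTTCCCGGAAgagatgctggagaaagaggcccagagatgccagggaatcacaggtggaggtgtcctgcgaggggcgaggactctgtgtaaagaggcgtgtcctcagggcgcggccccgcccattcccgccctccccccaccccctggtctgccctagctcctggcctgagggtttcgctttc
The Csf2rb2 promoter held TTCTGAGAA at bases −15 to −7 from the start, and that of Tnfrsf1b held TTCCCGGAA at −181 to −173. The Il11ra1 and Il15ra windows held none of these letters. Of the 27 receptor promoters, 4 held the STAT motif (14.8%, beside 7.18% of 27025 promoters), 1 the PU.1 motif (3.7%, beside 2.44%) and 3 the erythroid factor motif (11.1%, beside 10.3%). The 4 with the STAT motif were Csf2rb2, Tnfrsf1b, Tnfrsf1a and Ifnar2, of which the first 2 were called. The called genes Csf1r, Il10ra and Il12rb1 were not among the 27, so no window of theirs was searched.

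Receptor levels spanned a wide range. Levels between genes are compared per kilobase of exon (CPM divided by the merged exon length of GENCODE M21). Csf2ra, which encodes the ligand-binding chain of the GM-CSF receptor, averaged 136.7 ± 12.1 CPM per kb in libraries labelled knockout and 87 ± 21.7 in control libraries (SD, n = 3 each). Ifngr1, the ligand-binding chain of the interferon gamma receptor, averaged 111.2 ± 4.27 CPM per kb in libraries labelled knockout and 93.9 ± 10.4 in control libraries. Those were the 2 highest levels in both groups, within their spread of each other in control libraries. The third place was held by Csf3r in libraries labelled knockout (70.2 ± 6.02 CPM per kb) and by Kit in control libraries (62.6 ± 9.66), where Csf3r (59.2 ± 5.06) lay within the spread of Kit. At the other end, Lifr, which encodes the leukaemia inhibitory factor receptor, had under 1 CPM per kb, and Osmr, the oncostatin M receptor chain, had 0, 4 and 0 reads in libraries labelled knockout and 0, 1 and 0 in control libraries. A count of 0 in the shallowest library, knockout replicate 3, allows up to 0.241 CPM of Osmr, counting error only.

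**Figure D3:**
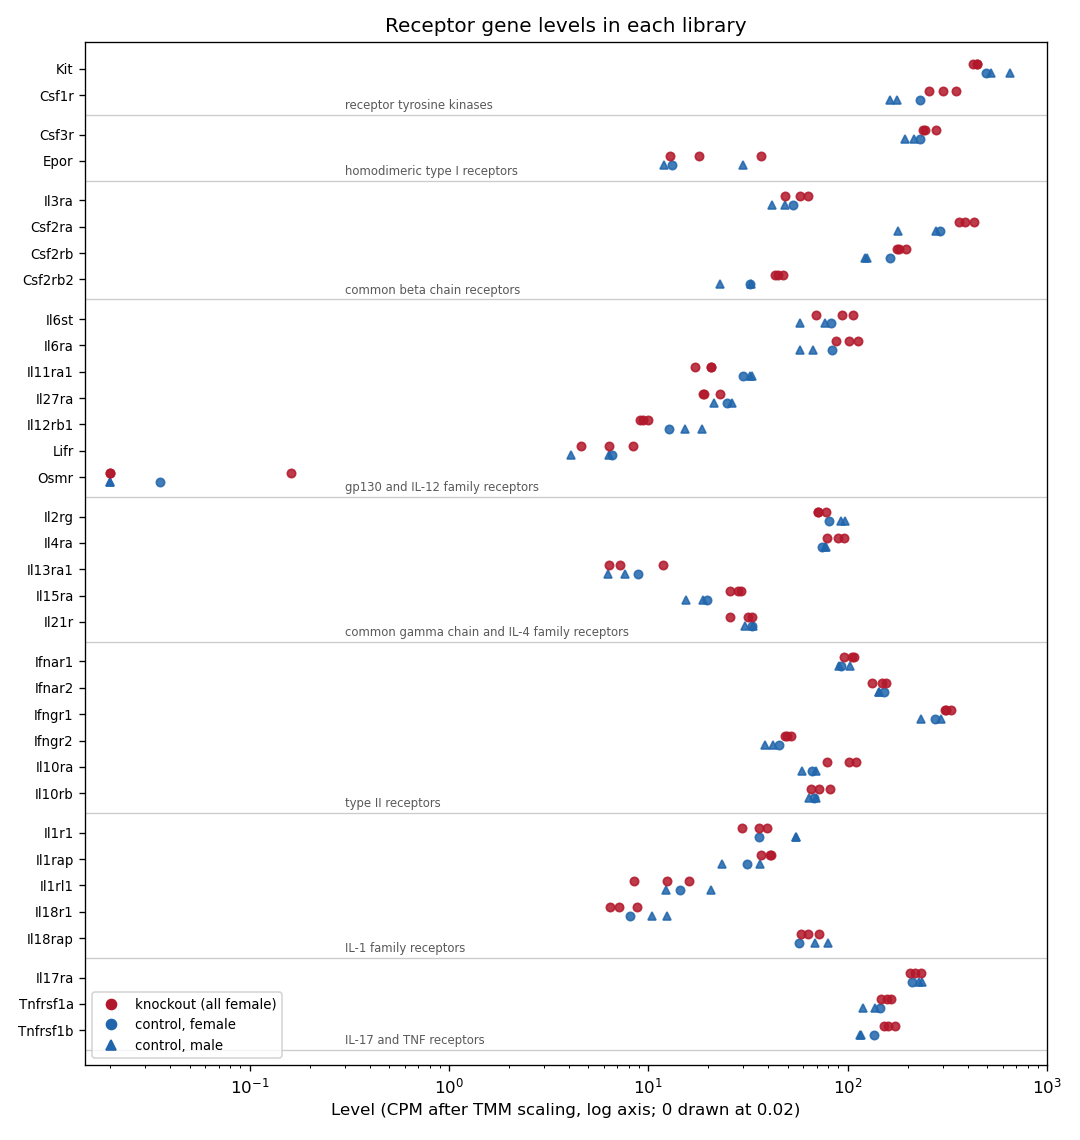
Level of each of the 34 receptor genes in each of the 6 libraries, in CPM on a log axis, grouped by receptor class; red points are libraries labelled knockout, blue circles the female control and blue triangles the male controls. Levels run from 0 CPM for Osmr to 655.2 CPM for Kit in control replicate 3.

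Among the receptor tyrosine kinases, Csf1r was higher and Kit did not pass the test. Csf1r, the receptor for macrophage colony-stimulating factor and IL-34 (chromosome 18, 61100598 to 61132149, plus strand, mm10), had 256.5, 300.1 and 350.3 CPM in libraries labelled knockout, against 164.2, 230.7 and 177.1 CPM in control libraries. The groups did not overlap, and the female control was the highest of the controls. The log2 fold change was 0.66 with an SE of 0.15 (edgeR adjusted p = 0.0318, n = 3 each). With the sex term it was 0.39 (edgeR adjusted p = 0.411). Kit, the receptor for stem cell factor and part of the sort gate, had 446, 426.3 and 444.5 CPM in libraries labelled knockout, against 523.7, 493.3 and 655.2 CPM in control libraries, with control replicate 3 standing above the rest. Its log2 fold change was −0.34 (95% interval −0.58 to −0.11, edgeR adjusted p = 0.0814), and −0.17 with the sex term.

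In bulk RNA, fewer cells of a type and less RNA per cell cannot be told apart, so values of markers of monocytes, macrophages and dendritic cells are given beside Csf1r, a gene of that lineage. Of 16 such markers tested, 6 were higher in the libraries labelled knockout and 10 did not pass. All 17 listed had reads. Their summed level was 2628, 2863 and 3232 CPM in libraries labelled knockout, in the same order as Csf1r, against 1633, 1859 and 1542 CPM in control libraries. Among the control libraries the order differed, as replicate 3 had the lowest sum but not the lowest Csf1r. Lyz2, a lysozyme of monocytes and granulocytes, carried the largest part, with 1229 CPM on average in libraries labelled knockout and 752.6 CPM in control libraries. Markers of mature neutrophils summed to 7190 to 9211 CPM in libraries labelled knockout and 2979 to 5755 CPM in control libraries, with 5 of 12 tested higher and 7 not past the test. The part of such cells in the receptor changes was not tested.

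The receptors of granulocyte and red cell growth factors did not pass. Csf3r, the granulocyte colony-stimulating factor receptor (chromosome 4, 126024550 to 126044440, plus strand), had 278.1, 238.1 and 243.5 CPM in libraries labelled knockout, against 216.1, 230.6 and 194.3 CPM in control libraries. The groups did not overlap, but the gap to the female control was small, and the log2 fold change was 0.24 (edgeR adjusted p = 0.121), or 0.14 with the sex term. Epor, the erythropoietin receptor, had 12.8, 17.9 and 36.8 CPM in libraries labelled knockout, against 12, 13.1 and 29.9 CPM in control libraries. Replicate 3 of each group was far above the other libraries of its group, and so was the summed level of erythroblast markers in those libraries (625.5 CPM in knockout replicate 3 and 334.5 CPM in control replicate 3). Of 12 erythroblast markers tested, 6 were higher in the libraries labelled knockout and 6 did not pass, with no negative value among the 12 and a list median of 1.69 on the log2 scale (2.21 with the sex term). The 95% interval of the Epor log2 fold change ran from −0.72 to 1.30, so a change of either sign could not be told from none.

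The 4 genes of the common beta chain family all had positive values, with 1 past the test. This family binds IL-3 and GM-CSF, and the mouse has a second beta chain gene, Csf2rb2, whose product serves IL-3 alone. Csf2rb2 (chromosome 15, 78282507 to 78305721, minus strand) had 47.5, 44.5 and 43.5 CPM in libraries labelled knockout, against 22.8, 32.2 and 32.9 CPM in control libraries. The libraries labelled knockout lay close together and above every control, and control replicate 1 was the lowest. Its log2 fold change was 0.62 with an SE of 0.14 (edgeR adjusted p = 0.0304, n = 3 each). With the sex term it was 0.49 (edgeR adjusted p = 0.383). Its neighbour Csf2rb, 20 kb away on the same chromosome, encodes the beta chain shared by IL-3, IL-5 and GM-CSF. Csf2rb had 196.4, 177.9 and 181.3 CPM in libraries labelled knockout, against 124.8, 164 and 122.1 CPM in control libraries, with the female control nearest to the libraries labelled knockout. It did not pass (log2 fold change 0.43 with an SE of 0.11, edgeR adjusted p = 0.052; 0.18 with the sex term).

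Reads of the 2 beta chain genes can be confused. Of all 50-base windows in the Csf2rb2 transcripts of GENCODE M21, 18.4% are also in Csf2rb transcripts, and 12.3% of those of Csf2rb are in Csf2rb2 transcripts, so how such reads were counted bears on both. With both counts summed into 1 row, the pair had a log2 fold change of 0.47 and passed the test (edgeR adjusted p = 0.0349). Csf2ra had 429.4, 387.8 and 360.5 CPM in libraries labelled knockout, against 279, 292.2 and 178.1 CPM in control libraries. The groups did not overlap and control replicate 3 was the lowest, and the gene missed the threshold narrowly (log2 fold change 0.65 with an SE of 0.17, edgeR adjusted p = 0.0505; 0.43 with the sex term). Il3ra, the IL-3 binding chain, ranged from 48.4 to 63.7 CPM in libraries labelled knockout and from 41.9 to 53.3 CPM in control libraries, which overlapped (log2 fold change 0.24, edgeR adjusted p = 0.259).

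The gp130 and IL-12 family held both genes that were lower. Il11ra1, the IL-11 binding chain (chromosome 4, 41699989 to 41769474, plus strand), had 20.8, 17.3 and 20.7 CPM in libraries labelled knockout, against 32.3, 29.8 and 33.3 CPM in control libraries. The groups were far apart relative to the spread within each, and the female control lay with the male controls. Its log2 fold change was −0.70 with an SE of 0.11 (edgeR adjusted p = 0.00873, n = 3 each), and −0.61 with the sex term (95% interval −0.94 to −0.28, edgeR adjusted p = 0.158). Near-identical copies of this gene exist in the mouse genome: 46.3% of the 50-base windows in its transcripts are also in Gm13305 and 15.8% in Il11ra2. Those rows held only 6 reads each over the 6 libraries, and with all 3 rows summed Il11ra1 was called as before. Several marker lists were lower in the same libraries. Megakaryocyte and platelet markers summed to 208.9 to 316.4 CPM in libraries labelled knockout and 358.2 to 492.6 CPM in control libraries, with 5 of 9 tested lower. Stroma and endothelium markers summed to 116 to 150.9 CPM in libraries labelled knockout and 168.2 to 201.8 CPM in control libraries, with 2 of 6 lower. Markers of long-term stem cells summed to 369.8 to 417.2 CPM in libraries labelled knockout and 412 to 584.2 CPM in control libraries, with 4 of 12 lower and 1 higher. Their part in the Il11ra1 and Il12rb1 values was not tested.

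Il12rb1, the chain shared by the IL-12 and IL-23 receptors (chromosome 8, 70808449 to 70821424, plus strand), had 9.46, 9.11 and 10 CPM in libraries labelled knockout, against 15.2, 12.7 and 18.7 CPM in control libraries. The female control was the lowest control, nearest to the libraries labelled knockout. The log2 fold change was −0.70 with an SE of 0.16 (edgeR adjusted p = 0.0374, n = 3 each), −0.41 with the sex term (edgeR adjusted p = 0.447) and −0.64 with limma-voom (adjusted p = 0.0547). T and NK cells express Il12rb1 strongly. Markers of those cells summed to 349.4, 283.3 and 283.5 CPM in libraries labelled knockout, against 327.6, 290.4 and 250.1 CPM in control libraries, which overlap, with 1 of 13 higher and 1 lower.

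The remaining gp130 family genes did not pass. Il6ra, the IL-6 binding chain, had 101.4, 112.8 and 87.3 CPM in libraries labelled knockout, against 67.4, 83.4 and 57.9 CPM in control libraries. The groups did not overlap but came close at knockout replicate 3 and the female control (log2 fold change 0.53, edgeR adjusted p = 0.0529; 0.27 with the sex term). Il6st, which encodes gp130 itself, had 69.1 to 106.1 CPM in libraries labelled knockout and 57.7 to 82.4 CPM in control libraries (log2 fold change 0.31, edgeR adjusted p = 0.304). Il27ra, the IL-27 binding chain, and Lifr overlapped between groups, with log2 fold changes of −0.26 and 0.16. Lifr had −0.041 with the sex term.

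**Figure D4:**
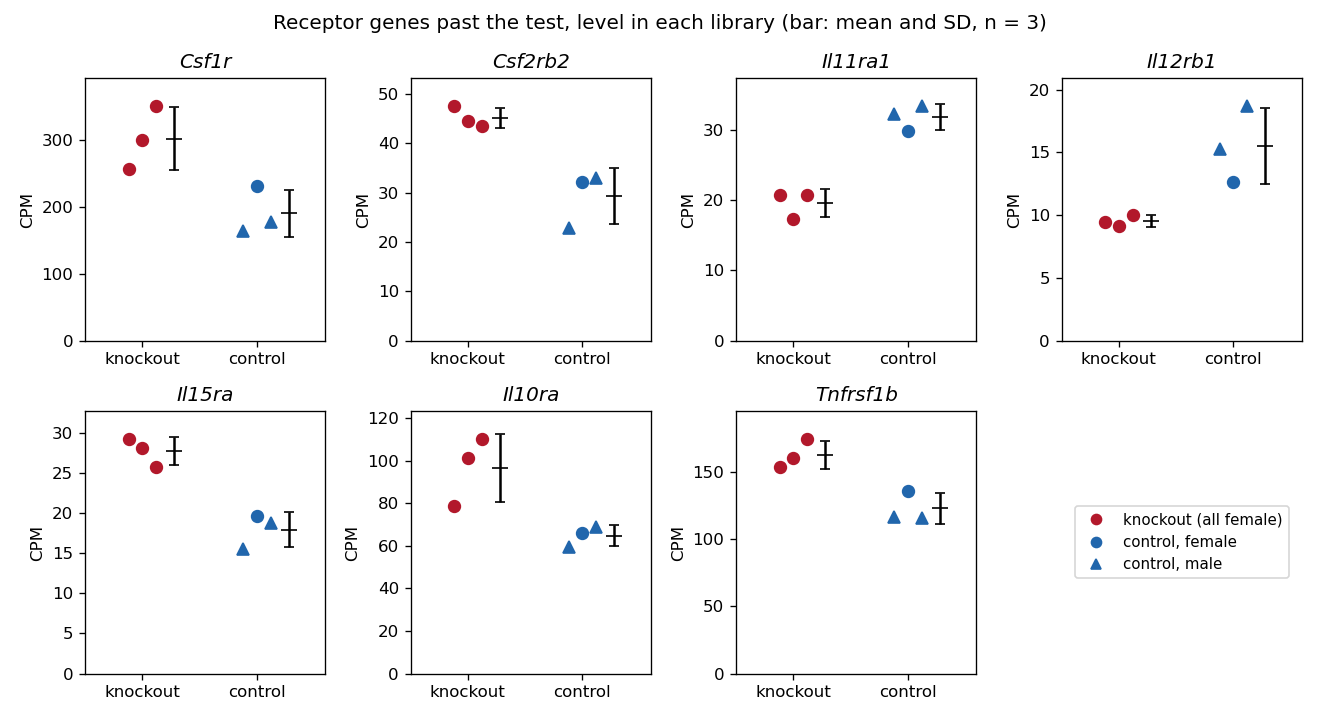
CPM in each library for the 7 receptor genes past the test, libraries labelled knockout at left (red) and control libraries at right (blue; circle for the female, triangles for the males), with mean and SD bars (n = 3 each) and axes from 0. No panel shows an overlap between groups; in Csf1r, Il12rb1, Il15ra, Tnfrsf1b and Il11ra1 the female control is the control nearest to the red points.

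In the common gamma chain and IL-4 family, Il15ra was higher. Its product binds IL-15 and presents it to neighbouring cells. Il15ra (chromosome 2, 11705290 to 11734317, plus strand) had 29.2, 28.2 and 25.8 CPM in libraries labelled knockout, against 15.5, 19.7 and 18.7 CPM in control libraries. Its log2 fold change was 0.63 with an SE of 0.12 (edgeR adjusted p = 0.0173, n = 3 each), and 0.50 with the sex term (95% interval 0.13 to 0.87, edgeR adjusted p = 0.279). Il2rg, the common gamma chain itself, ran the other way, with 71.1, 71.0 and 77.8 CPM in libraries labelled knockout against 93.2, 80.6 and 96.8 CPM in control libraries. The groups did not overlap, the female control again lay nearest to the libraries labelled knockout, and the gene did not pass (log2 fold change −0.30, edgeR adjusted p = 0.0618; −0.14 with the sex term). Il2rg lies on the X chromosome (101264378 to 101268255, minus strand), as does Il13ra1, the IL-13 binding chain, which had 6.37 to 11.9 CPM in libraries labelled knockout and 6.27 to 8.85 CPM in control libraries. Il4ra and Il21r, neighbours on chromosome 7 that encode the IL-4 and IL-21 binding chains, had log2 fold changes of 0.21 and −0.10 and did not pass.

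Of the type II receptors, which bind interferons and the IL-10 family, Il10ra was higher. It encodes the IL-10 binding chain (chromosome 9, 45253837 to 45269149, minus strand). Il10ra had 78.8, 101.3 and 110 CPM in libraries labelled knockout, against 59.3, 66.1 and 69.1 CPM in control libraries. The female control stood between the male controls, and the difference was nearly as large against it alone. The log2 fold change was 0.58 with an SE of 0.12 (edgeR adjusted p = 0.0269, n = 3 each), and 0.55 with the sex term (95% interval 0.11 to 0.98, edgeR adjusted p = 0.316). Il10ra followed the order of the summed monocyte, macrophage and dendritic cell markers in the libraries labelled knockout but not in the control libraries, where replicate 3 had the highest Il10ra and the lowest marker sum. Its partner Il10rb overlapped between groups (log2 fold change 0.12, edgeR adjusted p = 0.433).

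The interferon receptor genes did not pass the test. In the Mx1-Cre system both groups receive an interferon stimulus. Ifnar1 and Ifnar2, the chains of the type I interferon receptor, had log2 fold changes of 0.11 (95% interval −0.066 to 0.28) and −0.00065 (95% interval −0.17 to 0.16). Ifngr1 had 330.4, 307.1 and 312.7 CPM in libraries labelled knockout, against 293, 274.4 and 234.9 CPM in control libraries. Ifngr2, its signalling partner, had 49.9, 52 and 48.3 CPM in libraries labelled knockout, against 42.2, 45.1 and 38.6 CPM in control libraries. Both were without overlap and did not pass (log2 fold changes 0.24 and 0.25, edgeR adjusted p = 0.121 and 0.088). Ifnar2, Il10rb, Ifnar1 and Ifngr2 lie in that order within chromosome 16, 91372783 to 91565623, and none of the 4 passed.

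The IL-1 family receptors had no member past the test, with 4 of 5 values negative. Il1r1, the IL-1 receptor, had 39.3, 35.8 and 29.5 CPM in libraries labelled knockout, against 55.4, 36 and 55 CPM in control libraries. The female control was within the range of the libraries labelled knockout and both male controls lay above it. Its log2 fold change was −0.48 by group alone (edgeR adjusted p = 0.132) and −0.043 with the sex term, and without female control replicate 2 the gene passed at −0.65 (edgeR adjusted p = 0.0275). Its accessory chain Il1rap had 40.9, 36.9 and 41.4 CPM in libraries labelled knockout, against 36.2, 31.4 and 23.6 CPM in control libraries, with no overlap (log2 fold change 0.38, edgeR adjusted p = 0.142). Il1rl1, the IL-33 receptor of mast cells, and the IL-18 receptor chains Il18r1 and Il18rap overlapped between groups, at log2 fold changes of −0.36, −0.45 and −0.083. These 3 genes and Il1r1 form a cluster on chromosome 1, 40225080 to 40551705. Mast cell and basophil markers summed to 474.9, 329.1 and 292.6 CPM in libraries labelled knockout, against 670.6, 678.9 and 255.7 CPM in control libraries. Of 7 tested, 2 were lower and 5 did not pass, where 4.58% of all genes were lower. Il1rl1 did not follow the order of these sums, with 8.51, 12.5 and 16 CPM in libraries labelled knockout. In control libraries it had 12.2, 14.5 and 20.6 CPM. The part of such cells in the Il1rl1 values was not tested.

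Of the TNF receptors, Tnfrsf1b was higher. It encodes TNF receptor 2, a receptor without a death domain that is found mostly on blood and endothelial cells (chromosome 4, 145213463 to 145246870, minus strand). Tnfrsf1b had 153.2, 159.8 and 173.8 CPM in libraries labelled knockout, against 116.5, 135.9 and 115.4 CPM in control libraries. The male controls were nearly equal, and the female control lay between them and the libraries labelled knockout. The log2 fold change was 0.40 with an SE of 0.083 (edgeR adjusted p = 0.0256, n = 3 each). With the sex term it was 0.26 (edgeR adjusted p = 0.375). Tnfrsf1a, which encodes the death domain receptor of the pair, had 165.1, 156.9 and 146.5 CPM in libraries labelled knockout, against 136.8, 146.3 and 120.1 CPM in control libraries, which nearly met at knockout replicate 3 and the female control (log2 fold change 0.22, edgeR adjusted p = 0.155). Il17ra, the shared IL-17 receptor chain, overlapped between groups, at 206.1 to 233.7 CPM in libraries labelled knockout and 210.6 to 237.1 CPM in control libraries (95% interval of the log2 fold change −0.20 to 0.13).

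Across all 33 genes, every library labelled knockout lay above every control for 14 (42.4%, beside 15.1% of all genes tested) and below every control for 4 (12.1%, beside 16.1%). Groups overlapped for 15. The female control was the control nearest to the libraries labelled knockout for 5 of the 7 called genes, the exceptions being Csf2rb2 and Il10ra. The share of all genes for which this held was not computed, so the count is no result about receptor genes.

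Chains of a single receptor can be set against each other within a library, which removes differences in scaling. For 15 pairs of chains, the ratio of the levels per kb was computed in each library, and groups were compared by a two-sided exact permutation test, which with 3 libraries in each group cannot give a p below 0.1. These ratios restate the differences above. The ratio of Il11ra1 to Il6st was 0.55, 0.40 and 0.74 in libraries labelled knockout, against 1.04, 0.90 and 1.44 in control libraries (difference −1.01 on the log2 scale, exact p = 0.1, n = 3 each). The ratio of Il15ra to Il2rg was 0.22, 0.21 and 0.18 in libraries labelled knockout, against 0.089, 0.13 and 0.10 in control libraries (difference 0.93, exact p = 0.1, n = 3 each). That of Il1r1 to Il1rap was 1.72, 1.73 and 1.27 in libraries labelled knockout, against 2.73, 2.05 and 4.17 in control libraries (difference −0.88, exact p = 0.1, n = 3 each). In these 3 receptors the groups did not overlap, with Il11ra1 and Il1r1 low and Il15ra high relative to their partners in every library labelled knockout. Against the female control alone the differences were smaller, at −0.71 for Il11ra1 to Il6st, 0.63 for Il15ra to Il2rg and −0.40 for Il1r1 to Il1rap. Il6ra to Il6st, Il4ra to Il2rg, Il10ra to Il10rb and Il18r1 to Il18rap also gave an exact p of 0.1 (log2 differences 0.24, 0.50, 0.45 and −0.38, n = 3 each), and the adjusted p over the 15 pairs was 0.214 for all 7. The ratio of Ifngr1 to Ifngr2 overlapped, at 7.81 to 8.76 in libraries labelled knockout and 8.06 to 9.18 in control libraries (difference −0.0082, exact p = 1, n = 3 each).

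**Figure D5:**
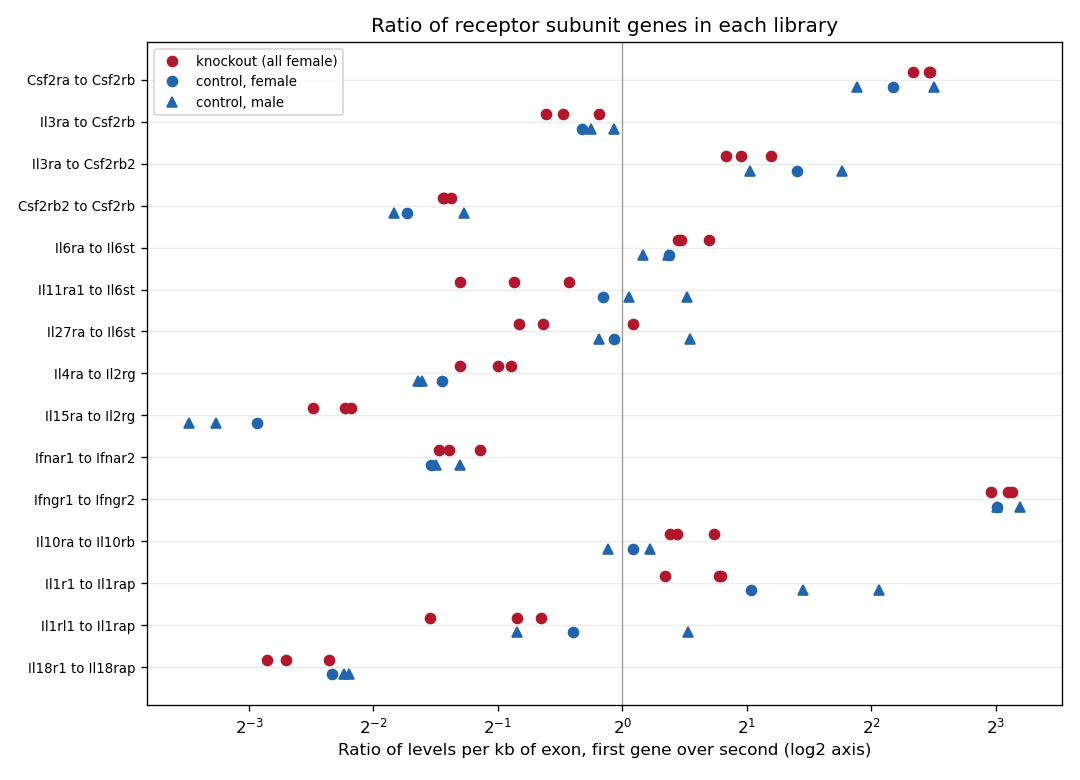
Ratio of the level per kb of the first to the second gene of 15 receptor chain pairs in each library, on a log2 axis; red, libraries labelled knockout; blue, control libraries (circle female, triangles male). Il11ra1 to Il6st and Il1r1 to Il1rap lie lower and Il15ra to Il2rg higher in the red points, while Ifngr1 to Ifngr2 overlaps.

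Genes that act with these receptors were counted in further lists, to be read beside the 3.85% of all genes higher and 4.58% lower. Of 11 Janus kinase and STAT genes, 1 was higher, Stat2, which relays type I interferon signals (87.4 CPM on average in libraries labelled knockout, against 68.9 CPM in control libraries; log2 fold change 0.34, edgeR adjusted p = 0.0338), and 10 did not pass. Of 26 inhibitors of signalling, 1 was higher, the tyrosine phosphatase gene Ptpn1 (0.26), and 25 did not pass, Socs and Cish genes among them. Of 32 adaptor and kinase genes, 6 were higher, 1 lower and 25 did not pass, with a list median of 0.13. Among the genes higher were the Src family kinase gene Lyn (0.36), the adaptor and kinase genes of IL-1 receptors Irak2 (0.47) and Myd88 (0.34), the lymphocyte PI3 kinase gene Pik3cd (0.31) and the TNF receptor kinase gene Ripk1 (0.23). The gene lower was Plcg1 (−0.52), a phospholipase downstream of receptor kinases, at 64.2 CPM in libraries labelled knockout and 92.6 CPM in control libraries, with 72 CPM in the female control. None of the 9 genes called in these lists passed with the sex term, in which 0.314% of all genes did.

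Of 34 tested receptor genes outside the 34 described here, 2 were higher, 9 lower and 23 did not pass. Over all genes tested, 3.85% were higher and 4.58% lower. The lower ones included Il17re and Il17rc, further IL-17 receptor chains. Il17re had 4.07, 2.86 and 2.89 CPM in libraries labelled knockout, against 19.9, 9.84 and 21.6 CPM in control libraries, where the female control was the lowest (log2 fold change −2.37 with an SE of 0.32, edgeR adjusted p = 0.00564; −1.58 with the sex term, edgeR adjusted p = 0.0586). Il17ra, the chain that pairs with both, overlapped between groups, as given above. Also lower were the tyrosine kinase receptors Flt3 (log2 fold change −0.67) and Pdgfrb (−1.27), Sigirr (−0.41), a negative regulator of the IL-1 receptor family, and the TNF receptor family genes Tnfrsf10b (−1.60), Tnfrsf13c (−0.87) and Cd27 (−0.43). None of the 11 passed with the sex term. The 2 higher were Cd40 and Tnfrsf14, both of the TNF receptor family (log2 fold changes 1.37 and 0.47; 1.18 and 0.48 with the sex term).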

How the data were processed

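RNA sequencing counts of 6 mouse LSK libraries, 3 labelled knockout and 3 control, were analysed. The values are raw counts per gene symbol, deposited by the authors as whole numbers with no normalization. Per the labels' protocols, libraries were strand-specific and from poly(A) RNA. The submitters' processing notes name STAR and mm10. The STAR version, counting tool, annotation and strand setting were not given in the sources used here. Reads of overlapping genes and of copies may therefore have been shared or split.

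Counts were filtered with filterByExpr (minimum count 10, minimum total 15), scaled by TMM and tested on all 13679 genes left with edgeR 4.0.16 (quasi-likelihood F test, group as sole term) in R 4.3.3, with Benjamini-Hochberg adjustment and a threshold of 0.05. Intervals are 95% and come from that model. Alternatives were DESeq2 size factors, upper-quartile scaling, no filter, a stricter filter (1 CPM in 3 libraries), DESeq2 1.42.0, limma-voom (limma 3.58.1), the replicate number as a block, a sex term, female libraries only, each library left out, an adjusted p under 0.1, and summed counts of near-identical genes, of which the Il11ra1 sum was chosen after seeing the data. Totals of 12408966 to 28185678 reads set the precision, and no pair of libraries agreed within sampling noise (chi-square per degree of freedom at least 10.8). Scripts were tested on simulated data.

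All 34 receptor genes are named, with the genes past the threshold in each pathway list, of which some are not reported here. The members, lists, chain pairs and motifs were chosen with earlier results of these data known. Of the list genes, 2 have no row. Positions are from GENCODE M21 and promoters from RefSeq (GRCm38.p6).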

Additional observations from a re-analysis of the deposited data

How the results depend on the processing

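Receptor genes higher and lower numbered 5 and 2 as reported. They numbered 8 and 4 without a filter and with DESeq2, 7 and 1 with limma-voom, 9 and 4 at an adjusted p under 0.1, and 0 and 0 with the sex term and in female libraries only. Leaving out 1 library gave 0 to 7 higher and 1 to 4 lower. The median log2 fold change of 0.21 was 0.19 with upper-quartile scaling and with Csf2rb and Csf2rb2 summed, 0.13 with the sex term and in female libraries only, and 0.13 to 0.27 without 1 library. Whether replicate numbers pair the libraries was not settled by correlations of their deviations from the group means. Same-numbered libraries had correlations of 0.394, 0.0055 and 0.405. Replicates 1 and 3 had −0.404 and −0.397 across groups, and knockout replicate 2 had only −0.040 to 0.040 with the controls. With the replicate block, 13 were higher and 4 lower, and all genes called numbered 1169 higher and 1003 lower, against 526 and 626. Over all genes, 7 were higher and 36 lower with the sex term, 10 and 29 in female libraries only, 833 and 835 with DESeq2, 770 and 814 without a filter (7.93%), 507 and 595 with limma-voom (8.06%), 951 and 1051 at an adjusted p under 0.1, and 119 to 440 and 171 to 544 without 1 library. With groups that did not overlap, no called gene could be expected to change sign, and none did. Uncalled genes that did were Ifnar2 (0.0051 with DESeq2 size factors, 0.0055 with DESeq2), Il13ra1 (−0.017 with limma-voom), and with the sex term and in female libraries only Lifr (−0.041 and −0.045), Il13ra1 (−0.079 and −0.085), Il18rap (0.18 and 0.17) and Il17ra (0.061 and 0.059). Without 1 library, log2 fold changes ran from −0.24 to 0.82 for Epor, −0.050 to 0.36 for Lifr, −0.17 to 0.31 for Il13ra1, −0.17 to 0.0020 for Il21r, −0.049 to 0.061 for Ifnar2, −0.085 to 0.0049 for Il17ra and −0.19 to 0.041 for Il18rap. Causes were not tested. Fits with a sex term or fewer libraries have fewer degrees of freedom, and fold changes of all 7 called genes were also smaller with the sex term. Depth limits the low genes: Il18r1, Lifr and Il12rb1 had 80, 104 and 125 reads in knockout replicate 3.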

Other observations

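Ligand genes of these receptors were mostly silent or low in the same libraries. Of 36 ligand genes listed, 18 passed the filter on low counts, and Il3, Epo and Ifna4 had no read in any library. Over all genes tested 3.85% were higher, and of the 18 ligand genes 1 was higher and 17 did not pass the test. The gene higher was Il1rn, the secreted antagonist of the IL-1 receptor, with 4.54, 4.88 and 7.3 CPM in libraries labelled knockout, against 0.92, 2.13 and 1.03 CPM in control libraries. The groups did not overlap and the female control was the highest control. Its log2 fold change was 1.95 with an SE of 0.36 (edgeR adjusted p = 0.0173, n = 3 each). With the sex term it was 1.37 (edgeR adjusted p = 0.226). Summed markers of monocytes, macrophages and dendritic cells were higher in the same libraries, and their part in this value was not tested.

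Of 14 genes known as STAT5 targets, 1 was lower and 13 did not pass, Cish, Socs1, Socs2 and Socs3 among them. Over all genes tested, 8.42% were called. Values were positive for 10 of the 14 and negative for 4, with a list median of 0.25 on the log2 scale (0.15 with the sex term). The gene lower was Ccnd2, which encodes cyclin D2, with 146.1, 165.7 and 158.4 CPM in libraries labelled knockout, against 247.5, 227.6 and 260.2 CPM in control libraries. All 3 controls lay well above the libraries labelled knockout, the female one included (log2 fold change −0.64 with an SE of 0.075, edgeR adjusted p = 0.00373; −0.54 with the sex term, edgeR adjusted p = 0.0842).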
